A study of Malus domestica with 18 samples.

Results

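Pectin is the galacturonic acid-rich polysaccharide of the plant primary wall and the middle lamella, where it holds neighbouring cells together. The 234 genes described here are those of the 42841 in the deposited apple count table whose closest named protein was a pectinesterase (87 genes), a pectin acetylesterase (14), a polygalacturonase (69, including 1 polygalacturonase inhibitor), a pectate lyase (26) or a galacturonosyltransferase (38). The search word for rhamnogalacturonate enzymes matched 0 genes. Poly(A) RNA came from axillary shoots of apple (Malus domestica, cultivar Húsvéti rozmaring) grown in vitro from shoot explants of 20 mm. The explants had been placed on medium with thidiazuron (TDZ, a synthetic phenylurea with cytokinin activity), on medium with benzylaminopurine riboside (BAR, the riboside of an adenine-type cytokinin), each at 4.5 µM, or on control medium without a cytokinin. All 3 media, the control included, held 0.49 µM indole butyric acid (an auxin) and 0.58 µM gibberellic acid. Shoots were sampled after 4 week and after 48 hour, with 3 libraries for each of the 6 groups. The labels call the replicates biological but do not say that they came from separate cultures, so p-values measure only the spread between these samples. Replicate 3 of the BAR and control groups of 48 hour and of the TDZ and BAR groups of 4 week has the library name of replicate 1 with a b added, and the labels do not say what the b marks, so these 4 may not be separate replicates.

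Pectin is made in the Golgi by galacturonosyltransferases and reaches the wall with most of its acid groups methylesterified. In the wall, pectinesterases remove the methyl groups, which lets calcium cross-link the chains or exposes them to degradation, and small inhibitor proteins block those pectinesterases. Pectin acetylesterases remove acetyl groups, polygalacturonases hydrolyse the demethylesterified backbone, and pectate lyases cut the same backbone by elimination. Softening of pectin is known to accompany organ outgrowth at the shoot apex, and the balance between pectinesterases and their inhibitors sets where it occurs.

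By name the genes fell into 38 galacturonosyltransferases (1 of them xyloglucan-specific), 42 pectinesterases with an inhibitor domain in the name, 33 other pectinesterases, 12 pectinesterase inhibitors, 14 pectin acetylesterases, 68 polygalacturonases, 1 polygalacturonase inhibitor and 26 pectate lyases. The deposited domain annotation largely matched the names: 24 of the 26 pectate lyases carried the pectate lyase domain, 41 of the 42 and 31 of the 33 pectinesterases the pectinesterase domain, and 55 of the 68 polygalacturonases the domain of that hydrolase family. An inhibitor domain was present in all 12 pectinesterase inhibitors, in 35 of the 42 pectinesterases named for it and in 7 of the 33 others. Neighbouring copies were common, since 55 members (23.5%) lay in 22 clusters within 50 kb of each other, 20 of which held members of 1 family only. Names are closest matches, so a name gives the family, and reads of close copies may have been shared between them.

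Many of the genes were silent in these shoots. Enough counts to be tested were present for 129 of the 234 members. The other 105 reached at most 2.21 FPKM (the deposited level, scaled for gene length and library size) in any library, and 49 had no count in any library. Tested were 18 of 42 pectinesterases with an inhibitor domain and 31 of 68 polygalacturonases, against 30 of 38 galacturonosyltransferases, 16 of 26 pectate lyases, 15 of 33 other pectinesterases, 11 of 14 pectin acetylesterases and 7 of 12 pectinesterase inhibitors. A few genes supplied much of each family's transcript: the leading 3 held 82.4% of the summed level of pectinesterases with an inhibitor domain, 85.1% of that of pectinesterase inhibitors and 38.3% of that of polygalacturonases. Since a gene could pass the count filter through the group in which it was high, counts below are of the members tested, not of the families.

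Libraries held 12546489 to 21279097 counted fragments, of which the members took 0.179% to 0.584%. The library labelled TDZ, 4 week, replicate 3 stood apart from its group. Cytokinin dehydrogenase 3 (DVH24_029452), a cytokinin-degrading enzyme that cytokinin is known to induce, had 135.5, 116.3 and 0.0398 FPKM in TDZ replicates 1, 2 and 3 at 4 week and 0 in all 3 controls of that time. BAR libraries of 4 week also nearly lacked it, at 0.0353, 0 and 0.0979 FPKM, so its absence does not separate control from cytokinin medium at that time. All 11 cytokinin dehydrogenases together had 200, 173 and 48.8 FPKM on TDZ, 24.9 to 37.6 FPKM on BAR and 76.7 to 85.8 FPKM on control medium at 4 week. By that sum TDZ replicate 3 lay between BAR and control. Type-A response regulators, which cytokinin is also known to induce, summed to 552, 482 and 14.8 FPKM on TDZ at 4 week. They had 34.5 to 38.9 FPKM on BAR and 11.3 to 23.0 FPKM on control medium. By this second sum TDZ replicate 3 lay within the controls and below BAR. Across genes that library correlated at 0.904 to 0.905 with its own group and at 0.953 to 0.954 with the 4 week controls (Spearman). Control replicate 1 at 4 week also stood apart, at 0.943 to 0.945 with the other controls, which correlated at 0.969 with each other. For most genes called at 4 week against another medium, the value without TDZ replicate 3 is given as well.

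Between 48 hour and 4 week, many pectin genes fell in shoots on control medium, and at 4 week many were higher on either cytokinin than on control medium. In controls, 62 of the 129 tested members were lower at 4 week than at 48 hour and 8 were higher, while 21% of all 26053 tested genes were lower and 15.7% higher (36.7% in either direction). At 4 week, 47 members were higher and 3 lower on TDZ than on control medium (16.8% and 9.72% of all genes, 26.6% in either direction), and 37 were higher and 10 lower on BAR than on control medium (17.2% and 12.7% of all genes, 29.9% in either direction). TDZ exceeded BAR at 4 week for 11 members and lay below it for 3 (4.42% and 3.98% of all genes, 8.4% in either direction). The median log2 fold change of the tested members was 0.83 for TDZ against control, 1.18 for BAR against control and 0.09 for TDZ against BAR, beside 0.14, 0.14 and 0.04 over all genes. For control shoots at 4 week against 48 hour it was -1.09, beside -0.04 over all genes.

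**Figure D1:**
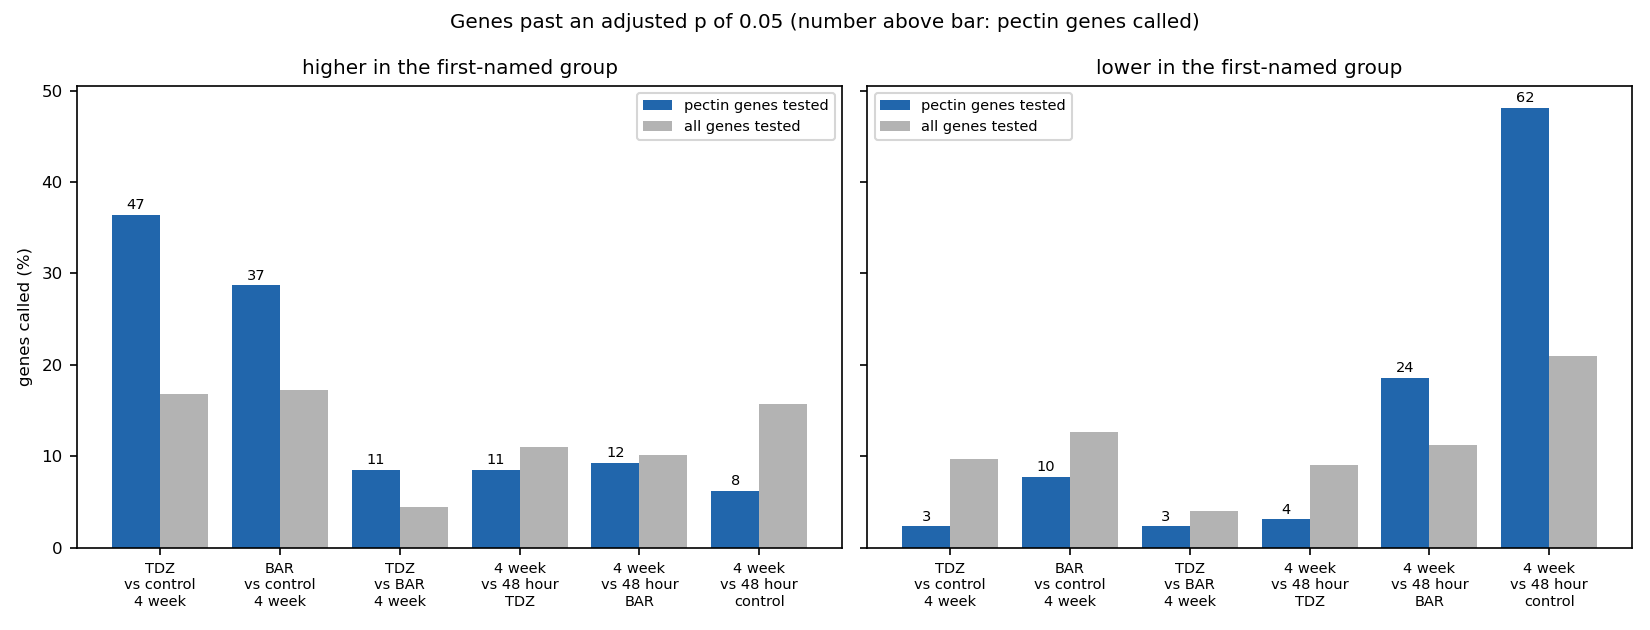
Percentage of tested pectin genes (blue, 129 genes) and of all tested genes (grey, 26053) past an adjusted p of 0.05 in 6 comparisons, split into genes higher (left) and lower (right) in the group named first. The tallest blue bar is the 62 pectin genes lower in controls at 4 week than at 48 hour, and the 47 and 37 genes higher on TDZ and on BAR than on control medium at 4 week also stand above their grey bars.

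The 3 counts between media depended on single libraries. Without the library labelled TDZ, 4 week, replicate 3, TDZ against control at 4 week gave 60 higher and 13 lower of 134 tested (23% and 17.9% of all genes), BAR against control 55 and 11 (21.1% and 15.5%), and TDZ against BAR 26 and 7 (8.47% and 6.97%). For TDZ against control the count of 50 members came down to 31, 30, 27 and 29 without TDZ replicate 1, TDZ replicate 2, control replicate 2 or control replicate 3 of 4 week, and for BAR against control the 47 came down to 26, 24, 20 and 24 without BAR replicate 1, BAR replicate 3, control replicate 2 or control replicate 3. For TDZ against BAR the 14 became 8 without TDZ replicate 1, 0 without BAR replicate 1, 2 without BAR replicate 3 and 22 without control replicate 1. A fit of the 9 libraries of 4 week alone called 10, 24 and 0 members in these 3 comparisons. The same 4 week libraries other than TDZ replicate 3 gave 67, 53 and 26, an alternative chosen after the data were seen.

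**Figure D2:**
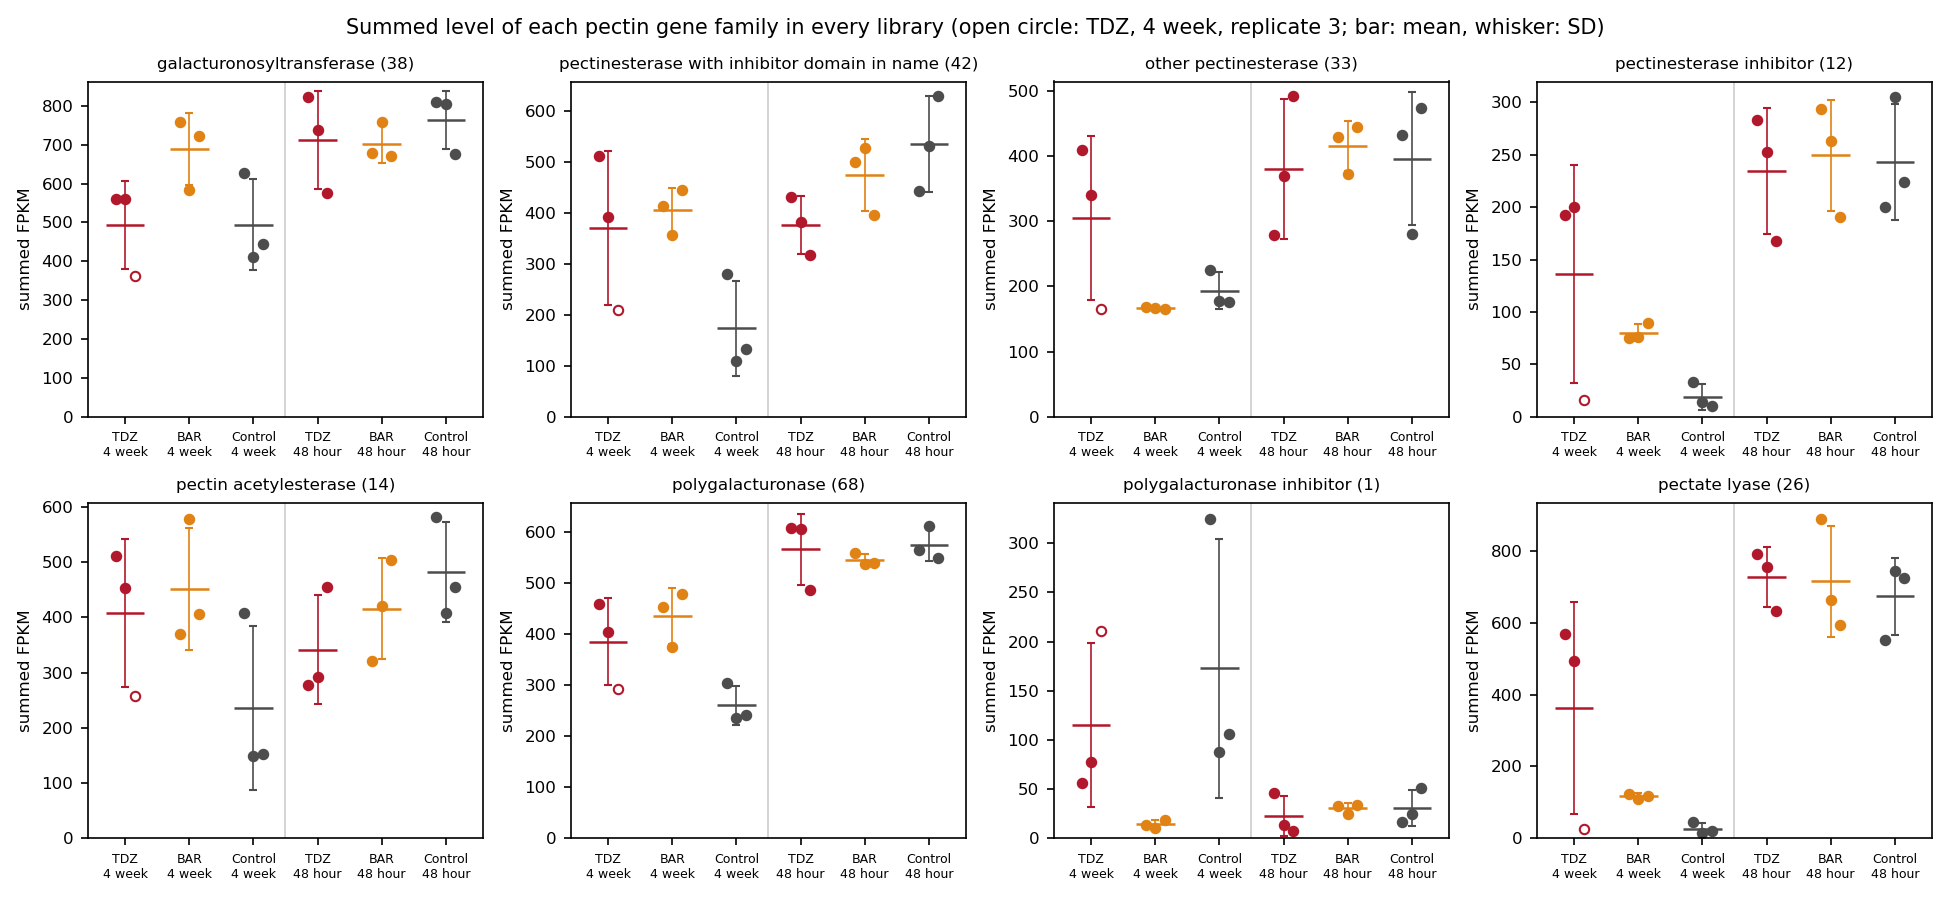
Summed FPKM of all members of each family in every library, with medium and time on the horizontal axis and a linear vertical axis from 0. Points are libraries, bars the mean and whiskers the SD of 3 libraries (whiskers stop at 0). Pectate lyases and pectinesterase inhibitors have their highest means at 48 hour and their lowest in 4 week controls, and the open circle (TDZ, 4 week, replicate 3) lies near the controls in both.

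Galacturonosyltransferases, the synthetic enzymes, had a summed level of 560, 560 and 362 FPKM on TDZ, 758, 584 and 723 FPKM on BAR and 628, 411 and 444 FPKM on control medium at 4 week, so the TDZ and control libraries overlapped. At 48 hour the sum lay between 575 and 822 FPKM in all 9 libraries. At 4 week 9 of 30 tested members were higher and 1 lower on TDZ than on control medium, beside 16.8% and 9.72% of all genes. On BAR 6 were higher and 0 lower, beside 17.2% and 12.7%, so the BAR share higher was near that of all genes. With TDZ replicate 3 left out they were 14 and 2 of 31 on TDZ and 11 and 0 on BAR. All genes in that fit gave 23% and 17.9% on TDZ and 21.1% and 15.5% on BAR. In controls, 14 were lower and 1 higher at 4 week than at 48 hour, beside 21% and 15.7% of all genes. Without that library they were 15 and 1, beside 23.2% and 18.4%.

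Galacturonosyltransferase 8 (DVH24_028562) had its highest levels on BAR at 4 week. In Arabidopsis the gene of this name is needed for cell adhesion. Its level was 36.2, 42.1 and 35.6 FPKM on TDZ, 75.5, 60.7 and 81.3 FPKM on BAR and 29, 21.3 and 21.8 FPKM on control medium at 4 week, and 22.4 to 32.8 FPKM in the 9 libraries of 48 hour. The 3 media did not overlap at 4 week, with BAR highest and control lowest. BAR exceeded control by 1.66 ± 0.19 (log2 fold change ± SE, adjusted p = 0.00018), and the call held with each library left out. TDZ exceeded control by 0.67 ± 0.19 (adjusted p = 0.0166) and lay below BAR at -0.99 ± 0.19 (adjusted p = 0.00763). The TDZ call against control was lost without TDZ replicate 2, control replicate 2 or control replicate 3 (adjusted p up to 0.0781), that against BAR without BAR replicate 1 (adjusted p = 0.0521), and both in the 4 week libraries alone. The differences were 0.69 from control (adjusted p = 0.0126) and -0.97 from BAR (adjusted p = 0.00514) without TDZ replicate 3.

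Galacturonosyltransferase-like 9 (DVH24_007083) took the other direction on TDZ. It had 32.4, 30.1 and 20.8 FPKM on TDZ, 86, 46.6 and 57.8 FPKM on BAR and 80, 44.4 and 65.3 FPKM on control medium at 4 week, with TDZ below all libraries of the other media. TDZ against control was -1.19 ± 0.28 (adjusted p = 0.00814) and held with each library left out, though not in the 4 week libraries alone. TDZ against BAR was -1.26 ± 0.29 (adjusted p = 0.0163), which was lost without BAR replicate 1 or BAR replicate 3 (adjusted p up to 0.11), with the 4 libraries that carry a b in their names added to the library of the same name, in the 4 week libraries alone and in those other than TDZ replicate 3. With only TDZ replicate 3 left out, TDZ was at -1.03 against control (adjusted p = 0.0133) and -1.10 against BAR (adjusted p = 0.0219).

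The most abundant member of the family, galacturonosyltransferase 6 (DVH24_010674), fell with time on TDZ. Its level was 63.1, 48.7 and 36.3 FPKM on TDZ at 4 week, against 404, 241 and 139 FPKM at 48 hour, and the change on TDZ was -2.42 ± 0.47 (adjusted p = 0.00286), which held with each library left out and was -2.25 (adjusted p = 0.0087) without TDZ, 4 week, replicate 3. The change on TDZ minus that on control medium was -0.86 ± 0.63 (adjusted p = 0.405), so a fall particular to TDZ was not resolved. Galacturonosyltransferase 4 (DVH24_014332) had 65.5, 66.5 and 35.7 FPKM on TDZ, 66.3, 59.9 and 74.5 FPKM on BAR and 53.7, 55.8 and 52 FPKM on control medium at 4 week. Galacturonosyltransferase-like 10 (DVH24_037175) rose on control medium, to 43.3, 56.5 and 61.5 FPKM at 4 week, against 14.8, 13.1 and 13.2 FPKM at 48 hour (1.96 ± 0.46, adjusted p = 0.00466). On TDZ it had 11.5, 11.4 and 52.3 FPKM at 4 week and 7.72, 8.88 and 5.37 FPKM at 48 hour. The high 4 week value belonged to the library labelled replicate 3, and the TDZ change of 1.78 (adjusted p = 0.0147) became 0.61 (adjusted p = 0.103) without it.

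Pectinesterases without an inhibitor domain in the name were split. In sum they had 409, 340 and 166 FPKM on TDZ, 169, 167 and 165 FPKM on BAR and 226, 178 and 176 FPKM on control medium at 4 week. TDZ replicates 1 and 2 were thus above all BAR and control libraries, and BAR lay below control. Among 15 tested members, 4 were higher and 1 lower on TDZ than on control medium, and 1 was higher and 2 were lower on BAR. The shares of all genes were 16.8% and 9.72% on TDZ and 17.2% and 12.7% on BAR. The counts without TDZ replicate 3 were 5 and 3 of 16 on TDZ and 3 and 3 on BAR, beside 23% and 17.9% of all genes on TDZ and 21.1% and 15.5% on BAR in that fit.

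Pectinesterase 3 (DVH24_027720), the leading gene of this family, was higher on TDZ than on BAR or control medium at 4 week. It had 262, 189 and 12.9 FPKM on TDZ, 13.3, 29.6 and 16 FPKM on BAR and 12.2, 2.64 and 3.45 FPKM on control medium at 4 week, against 107, 180 and 331 FPKM on TDZ, 201, 178 and 284 FPKM on BAR and 198, 135 and 257 FPKM on control medium at 48 hour. TDZ replicate 3 fell among the BAR and control libraries, and the other TDZ libraries stood above all of them. Against control, TDZ was higher by 4.64 ± 0.87 at 4 week (adjusted p = 0.00307), or 5.17 (adjusted p = 8.14e-06) without TDZ replicate 3. TDZ exceeded BAR by 2.90 ± 0.80 (adjusted p = 0.0362), or 3.44 (adjusted p = 0.000744) without that library. The difference from BAR was lost without BAR replicate 2 of 48 hour, TDZ replicate 1 or 2 or any BAR library of 4 week (adjusted p up to 0.169), with replicate number as a block, and in the 4 week libraries alone. Its neighbour of the same name within 50 kb (DVH24_027721) had 16.5, 18.9 and 16.5 FPKM on TDZ, 20.3, 16 and 26 FPKM on BAR and 24.1, 24.3 and 22.4 FPKM on control medium at 4 week, a narrow range.

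Pectinesterase 31 (DVH24_037074) was lower with either cytokinin. Its level was 25.1, 21.7 and 41.1 FPKM on TDZ, 22.5, 25.1 and 22.4 FPKM on BAR and 52.6, 49.7 and 51.3 FPKM on control medium at 4 week, and no cytokinin library reached a control. BAR against control was -1.06 ± 0.24 (adjusted p = 0.00522), which held with each library left out. TDZ against control was -0.79 ± 0.24 (adjusted p = 0.0255), or -1.14 (adjusted p = 0.000693) without TDZ replicate 3. That call was lost without TDZ replicate 1 or 2 or control replicate 2 or 3 (adjusted p up to 0.125), and in the 4 week libraries alone.

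Pectinesterase 68 (DVH24_035926) showed no count in the 4 week controls. It had 4.72, 10.5 and 0.0544 FPKM on TDZ and 0.0965, 1.01 and 0.536 FPKM on BAR at 4 week, against 25.3 to 122 FPKM in the 9 libraries of 48 hour. It was at least 92.5-fold higher on TDZ than on control medium at 4 week (adjusted p = 0.00481), taking 3 counts over the control group as the floor, and at least 138-fold without TDZ replicate 3. The call was lost in the 4 week libraries alone. In controls it was at least 1163-fold lower at 4 week than at 48 hour (adjusted p = 0.000569).

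Pectinesterases with an inhibitor domain in the name carry a proregion that resembles the free inhibitors. Their summed level was 511, 392 and 210 FPKM on TDZ, 414, 356 and 445 FPKM on BAR and 281, 109 and 132 FPKM on control medium at 4 week. All BAR libraries lay above the controls, and TDZ replicate 3 lay within them. Of 18 tested members, 5 were higher and 0 lower on TDZ than on control medium, and 4 were higher and 2 lower on BAR, shares that stand beside 16.8% and 9.72% of all genes on TDZ and 17.2% and 12.7% on BAR. Leaving out TDZ replicate 3 gave 6 and 3 of 19 on TDZ and 7 and 2 on BAR. All genes then gave 23% and 17.9% on TDZ and 21.1% and 15.5% on BAR.

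The leading gene of this family, named for tomato pectinesterase U1 (DVH24_000532), had 255, 192 and 85.1 FPKM on TDZ, 110, 95.8 and 114 FPKM on BAR and 112, 18.1 and 24.6 FPKM on control medium at 4 week. Control replicate 1 sat with the BAR libraries. The TDZ excess over control was 1.76 ± 0.52 (adjusted p = 0.0218), a call lost without TDZ replicate 1 or 2 or control replicate 2 or 3 (adjusted p up to 0.0991) and in the 4 week libraries alone. It was 2.08 (adjusted p = 0.00356) without TDZ replicate 3. Pectinesterase/pectinesterase inhibitor 61 (DVH24_024897) was highest on BAR, with 83.8, 52 and 20.4 FPKM on TDZ, 172, 96.2 and 174 FPKM on BAR and 71.4, 19.7 and 26.4 FPKM on control medium at 4 week. All 3 BAR libraries were above the others. BAR exceeded control by 1.97 ± 0.52 (adjusted p = 0.0106), a call lost without control replicate 2 or 3 (adjusted p up to 0.0524) and in the 4 week libraries alone.

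Probable pectinesterase/pectinesterase inhibitor 34 (DVH24_022409) had 106, 85.3 and 1.57 FPKM on TDZ, 56.8, 32.5 and 82.9 FPKM on BAR and 14.6, 2.42 and 3.56 FPKM on control medium at 4 week, against 50 to 149 FPKM in the 9 libraries of 48 hour. It was below every control in TDZ replicate 3 and above every control in the other cytokinin libraries. In controls it fell with time (-4.06 ± 0.98, adjusted p = 0.00529), which held with each library left out. The differences from control at 4 week were 3.20 ± 0.95 for TDZ (adjusted p = 0.0218) and 3.11 ± 0.94 for BAR (adjusted p = 0.0216). Both were lost without control replicate 2 or 3 and in the 4 week libraries alone, the TDZ one also without TDZ replicate 1 or 2 (adjusted p up to 0.0881) and the BAR one without BAR replicate 3 (up to 0.086). Without TDZ replicate 3 the TDZ difference was 3.77 (adjusted p = 0.000105).

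A pair of genes named pectinesterase/pectinesterase inhibitor 28 went opposite ways with time on control medium. DVH24_015148 had 2.22, 1.92 and 6.22 FPKM on TDZ, 0.926, 1.1 and 1.01 FPKM on BAR and 1.59, 17.3 and 14.6 FPKM on control medium at 4 week. It rose in controls relative to 48 hour by 3.07 ± 0.68 (adjusted p = 0.00323) and was lower on BAR than on control medium at -3.38 ± 0.69 (adjusted p = 0.00286), both calls holding with each library left out. DVH24_036545 had 2.07, 2.87 and 0 FPKM on TDZ, 0, 0 and 0.0153 FPKM on BAR and 0 in all 3 controls at 4 week. It was thus seen in TDZ replicates 1 and 2 and hardly elsewhere at that time. In controls it was at least 70.3-fold lower at 4 week than at 48 hour (adjusted p = 0.0167), a call lost without control replicate 2 of 4 week (adjusted p = 0.0514). It was at least 87.2-fold higher on TDZ than on control medium (adjusted p = 0.0199), a call lost without TDZ replicate 2 or control replicate 2 or 3 (adjusted p up to 0.0625), and at least 131-fold higher without TDZ replicate 3.

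Pectinesterase inhibitors fell with time in controls. Their summed level was 192, 200 and 16 FPKM on TDZ, 75.2, 75.8 and 89.6 FPKM on BAR and 32.9, 14.5 and 9.89 FPKM on control medium at 4 week, against 168 to 305 FPKM in the 9 libraries of 48 hour. In controls, 5 of 7 tested members fell with time and 0 rose, beside 21% and 15.7% of all genes. The BAR and control libraries of 4 week lay below all of 48 hour, and TDZ replicates 1 and 2 overlapped them. At 4 week 3 were higher on TDZ than on control medium and 2 were higher on BAR, with 0 lower in either comparison. Of all genes 16.8% and 17.2% were higher and 9.72% and 12.7% lower on TDZ and BAR. Counts without TDZ replicate 3 were 3 and 0 of 7 on TDZ and 4 and 1 on BAR. The shares of all genes in that fit were 23% and 17.9% on TDZ and 21.1% and 15.5% on BAR.

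Pectinesterase inhibitor 3 (DVH24_018257) was the most abundant. In Arabidopsis the gene of this name, overexpressed, blocks the start of new organs at the shoot meristem. It had 140, 160 and 1.61 FPKM on TDZ, 57.5, 31.7 and 61.2 FPKM on BAR and 12.3, 2.26 and 1.54 FPKM on control medium at 4 week, against 101 to 234 FPKM in the 9 libraries of 48 hour. TDZ replicate 3 lay inside the control range, and all BAR libraries lay above it. TDZ exceeded control by 4.17 ± 1.04 (adjusted p = 0.00974), or 4.74 (adjusted p = 1.9e-05) without TDZ replicate 3, and BAR exceeded control by 3.25 ± 1.00 (adjusted p = 0.0238). The BAR call was lost without BAR replicate 1 or 3 or control replicate 2 or 3 (adjusted p up to 0.0923), and both calls in the 4 week libraries alone. TDZ against BAR was 0.93, with a 95% interval of -0.998 to 2.85, so a difference between the cytokinins was not resolved.

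A lower copy of the same name (DVH24_040321) had 2.1, 4.05 and 0 FPKM on TDZ, 2.22, 3.22 and 3.12 FPKM on BAR and 0.261, 0 and 0 FPKM on control medium at 4 week, against 4.95 to 17.2 FPKM in the 9 libraries of 48 hour. All BAR libraries were above the controls and TDZ replicate 3 had no count. BAR exceeded control by 4.80 ± 1.15 (adjusted p = 0.00661), which held with each library left out. The TDZ difference of 4.27 ± 1.15 (adjusted p = 0.014) was lost without TDZ replicate 2 or control replicate 2 or 3 (adjusted p up to 0.07), and both were lost in the 4 week libraries alone. It was 4.82 (adjusted p = 0.000115) without TDZ replicate 3.

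Several pectin acetylesterases were higher with either cytokinin. At 4 week 4 of 11 tested members rose on TDZ relative to control medium and 7 rose on BAR, with 0 lower in either comparison, beside 16.8% and 17.2% of all genes higher. With TDZ replicate 3 left out, 6 and 7 rose, beside 23% and 21.1% of all genes higher in that fit. Together they had 512, 454 and 257 FPKM on TDZ, 370, 578 and 406 FPKM on BAR and 407, 149 and 152 FPKM on control medium at 4 week. Control replicate 1 lay with the BAR libraries and well above the other controls.

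Pectin acetylesterase 10 (DVH24_015023) was low in 4 week controls and higher with either cytokinin. It had 25.5, 24.8 and 0.459 FPKM on TDZ, 15.7, 20.9 and 23.1 FPKM on BAR and 0.95, 0.0794 and 0.345 FPKM on control medium at 4 week, against 11.6 to 30.2 FPKM in the 9 libraries of 48 hour. TDZ replicate 3 again lay among the controls. Relative to control, TDZ was higher by 5.15 ± 0.99 (adjusted p = 0.0033) and BAR by 5.45 ± 1.00 (adjusted p = 0.00161). Both calls held with each library left out, and the TDZ call was lost in the 4 week libraries alone. Without TDZ replicate 3 the TDZ difference was 5.71 (adjusted p = 6.99e-07). TDZ against BAR was -0.31, with a 95% interval of -1.99 to 1.38. Pectin acetylesterase 12 (DVH24_036428) was higher on BAR, with 22.1, 19.7 and 13.5 FPKM on TDZ, 31.9, 37.9 and 34.6 FPKM on BAR and 18.3, 14.4 and 15.5 FPKM on control medium at 4 week. BAR libraries did not overlap the others, and BAR exceeded control by 1.18 ± 0.25 (adjusted p = 0.00321). TDZ lay below BAR at -0.98 ± 0.24 (adjusted p = 0.0239), a call lost without any of the BAR libraries of 4 week (adjusted p up to 0.0834), with the libraries named b added to their namesakes, and in the 4 week libraries alone. It was -0.81 (adjusted p = 0.0404) without TDZ replicate 3.

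**Figure D3:**
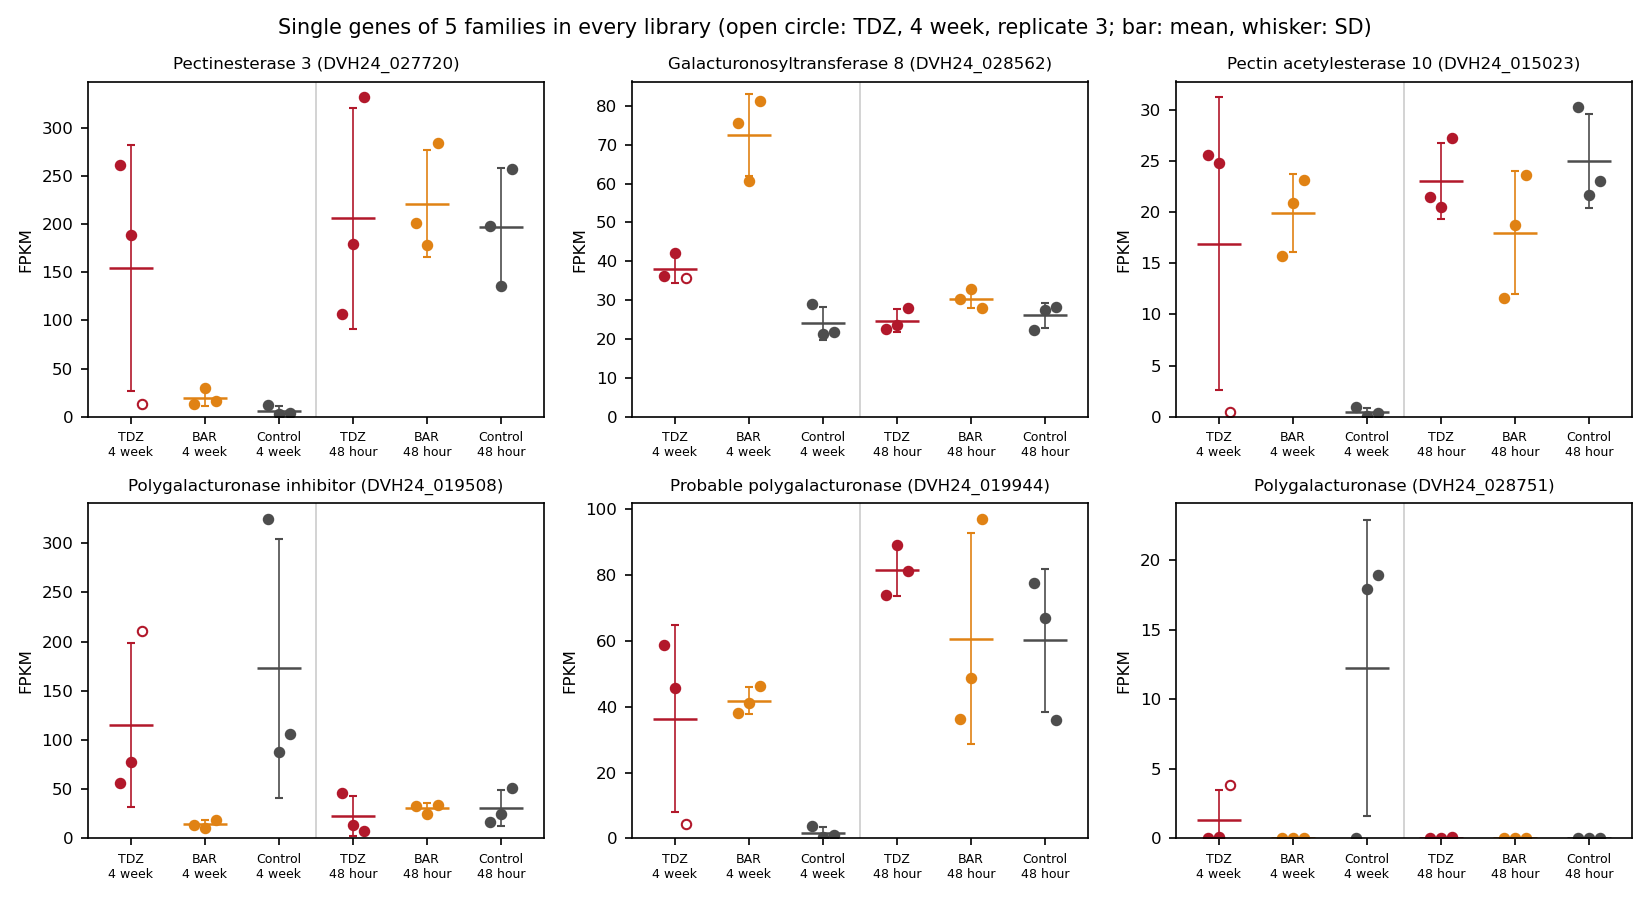
FPKM of 6 members in every library, with medium and time on the horizontal axis and a linear vertical axis from 0 in each panel. Points are libraries, bars the mean and whiskers the SD of 3 libraries (whiskers stop at 0). Pectinesterase 3, pectin acetylesterase 10 and polygalacturonase DVH24_019944 fall to 12.2, 0.95 and 3.77 FPKM or less in 4 week controls, while polygalacturonase DVH24_028751 reaches 17.9 and 18.9 FPKM in 2 of those controls.

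Polygalacturonases, the largest family, contained members that changed in opposite directions. Summed, they had 458, 405 and 292 FPKM on TDZ, 453, 374 and 478 FPKM on BAR and 305, 236 and 241 FPKM on control medium at 4 week, with TDZ replicate 3 again inside the control range. Of 31 tested members, 8 were higher and 1 lower on TDZ than on control medium, and 8 were higher and 5 lower on BAR, beside 16.8% and 9.72% of all genes on TDZ and 17.2% and 12.7% on BAR. Without TDZ replicate 3 they were 11 and 5 on TDZ and 10 and 4 on BAR. All genes then gave 23% and 17.9% on TDZ and 21.1% and 15.5% on BAR. In controls 11 were lower and 4 higher at 4 week than at 48 hour (21% and 15.7% of all genes).

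Polygalacturonase DVH24_019944 had 58.8, 45.8 and 4.47 FPKM on TDZ, 38.2, 41.1 and 46.3 FPKM on BAR and 3.77, 0.46 and 0.872 FPKM on control medium at 4 week, against 35.9 to 97.1 FPKM in the 9 libraries of 48 hour. No cytokinin library overlapped the controls. TDZ exceeded control by 4.37 ± 0.82 (adjusted p = 0.00307) and BAR by 4.65 ± 0.83 (adjusted p = 0.00141), and both calls held with each library left out. The TDZ difference was 4.88 (adjusted p = 1.22e-05) without TDZ replicate 3. TDZ against BAR was -0.28, with a 95% interval of -1.76 to 1.21. The most abundant polygalacturonase (DVH24_008227) had 89.4, 68.7 and 3.45 FPKM on TDZ, 49.2, 58.2 and 58.1 FPKM on BAR and 20.6, 3.34 and 2.45 FPKM on control medium at 4 week. Its calls against control (TDZ 2.58 ± 0.82, adjusted p = 0.0305, and BAR 2.69 ± 0.83, adjusted p = 0.0229) were lost without control replicate 2 or 3, without TDZ replicate 1 or 2 for TDZ (adjusted p up to 0.127), without BAR replicate 3 for BAR (up to 0.0906), and in the 4 week libraries alone. The TDZ one was 3.13 (adjusted p = 0.00042) without TDZ replicate 3.

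A polygalacturonase non-catalytic beta subunit (DVH24_007023), named for the tomato protein that binds the catalytic enzyme in the wall, fell with time on control and BAR medium. It had 30.7, 27.5 and 0.649 FPKM on TDZ, 5.32, 5 and 9.7 FPKM on BAR and 4.07, 0.286 and 0.498 FPKM on control medium at 4 week, against 56.2 to 143 FPKM in the 9 libraries of 48 hour. The change with time was -5.68 ± 1.09 in controls (adjusted p = 0.0015) and -3.50 ± 0.97 on BAR (adjusted p = 0.0184). The BAR call was lost without BAR replicate 1 or 2 of 4 week (adjusted p up to 0.0796). All TDZ libraries of 4 week also lay below those of 48 hour, though that change was not called. The change on TDZ minus that on control medium was 3.19 ± 1.30 (adjusted p = 0.128), so a difference between these media was not resolved. Polygalacturonase DVH24_003254 took the other direction on BAR, to 160, 55.8 and 160 FPKM at 4 week, against 32.5, 26.8 and 24.5 FPKM at 48 hour. No BAR library of 4 week overlapped those of 48 hour, and the change of 2.25 ± 0.51 (adjusted p = 0.00636) held with each library left out.

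Other polygalacturonases were found mainly in 2 of the 4 week controls. DVH24_028751 had 0, 0.0617 and 3.84 FPKM on TDZ, 0 on BAR in all 3 libraries and 0, 17.9 and 18.9 FPKM on control medium at 4 week, and at most 0.0809 FPKM at 48 hour. DVH24_024809 had 0.38, 1.35 and 6.82 FPKM on TDZ, 0.193, 1.18 and 0.463 FPKM on BAR and 0.559, 16.2 and 19 FPKM on control medium at 4 week. Both were high in control replicates 2 and 3, intermediate in the library labelled TDZ, replicate 3, and low in control replicate 1. DVH24_028751 was at least 315-fold lower on BAR than on control medium (adjusted p = 0.0292), and DVH24_024809 was lower at -4.19 ± 1.38 (adjusted p = 0.0323). The first call was lost without TDZ replicate 3 of 48 hour, any BAR library or control replicate 2 or 3 of 4 week, with DESeq2, and in the 4 week libraries alone. The other was lost without any BAR library or control replicate 2 or 3 of 4 week (adjusted p up to 0.112), with the libraries named b added to their namesakes, and in the 4 week libraries alone. A set of 30 xylem and secondary wall marker genes (laccases and secondary wall cellulose synthases among them) was also high in sum in control replicates 2 and 3, at 385 and 361 FPKM, against 95.9 FPKM in control replicate 1 and 82.3 to 92.5 FPKM in the cytokinin libraries of 4 week. A single gene, cellulose synthase A subunit 7 (DVH24_017596), held 88.1% of that sum, at 342 and 315 FPKM in control replicates 2 and 3, against 45.7 FPKM in replicate 1. The list as a whole went the other way, with 1 of 20 tested members higher and 11 lower in controls at 4 week than at 48 hour, and 13 of the 30 had no count in the 4 week controls. The part of these cells in the result was not tested.

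The polygalacturonase inhibitor (DVH24_019508), of a protein class known for blocking fungal polygalacturonases, rose in controls with time and was lower on BAR. It had 56.7, 77.9 and 211 FPKM on TDZ, 13.6, 10.3 and 18.5 FPKM on BAR and 325, 87.5 and 107 FPKM on control medium at 4 week, against 7.76 to 51.6 FPKM in the 9 libraries of 48 hour. BAR lay below every library of the other media at 4 week. The rise in controls was 2.48 ± 0.69 (adjusted p = 0.0113), a call lost without control replicate 1 of 48 hour or of 4 week (adjusted p up to 0.0588). A rise with time was also called on TDZ, at 2.37, but was 1.57 and not called without TDZ replicate 3 of 4 week. The change on TDZ minus that on control medium was -0.10 ± 0.92 (adjusted p = 0.963), so a difference between these media was not resolved. BAR against control was -3.55 ± 0.72 (adjusted p = 0.00272) and held with each library left out. TDZ exceeded BAR by 2.98 ± 0.70 (adjusted p = 0.0192), or 2.17 (adjusted p = 0.0288) without TDZ replicate 3. That call was lost without any BAR library of 4 week (adjusted p up to 0.102), with the libraries named b added to their namesakes, and in the 4 week libraries alone.

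All tested pectate lyases fell in controls with time, and most were higher on TDZ. Their summed level was 569, 494 and 25.1 FPKM on TDZ, 124, 110 and 118 FPKM on BAR and 45.5, 14.8 and 21.2 FPKM on control medium at 4 week, against 551 to 889 FPKM in the 9 libraries of 48 hour. The library labelled TDZ, replicate 3 lay within the controls, the other TDZ libraries near the level of 48 hour, and BAR between. In controls 16 of 16 tested members were lower at 4 week than at 48 hour, on BAR 11 were lower and 0 higher, and on TDZ 0 were called. The shares of all genes lower were 21%, 11.2% and 9.05%. Without TDZ, 4 week, replicate 3, 16 of 18 were lower in controls, 13 were lower on BAR, and 1 was higher and 1 lower on TDZ. The shares of all genes lower in that fit were 23.2%, 15.6% and 9.15%, and 8.19% were higher on TDZ. At 4 week 14 of 16 were higher and 0 lower on TDZ than on control medium, 9 were higher and 0 lower on BAR, and 6 were higher and 0 lower on TDZ than on BAR. Of all genes 16.8%, 17.2% and 4.42% were higher in these comparisons.

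The median log2 fold change of the 16 was 8.23 for TDZ against control and 4.14 for BAR against control, or 7.26 and 3.20 with genes that had no control count set at their lower bound. Without the library labelled TDZ, 4 week, replicate 3, TDZ was higher than control for 15 of 18 tested pectate lyases, BAR was higher than control for 13, and TDZ was higher than BAR for 12. Of all genes 23%, 21.1% and 8.47% were higher in these comparisons without that library. That library lay below both other TDZ libraries for 16 of 16 genes and below all 3 BAR libraries for 14. TDZ replicates 1 and 2 lay above all 3 BAR libraries for 14, and all BAR libraries lay above the controls for 13.

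**Figure D4:**
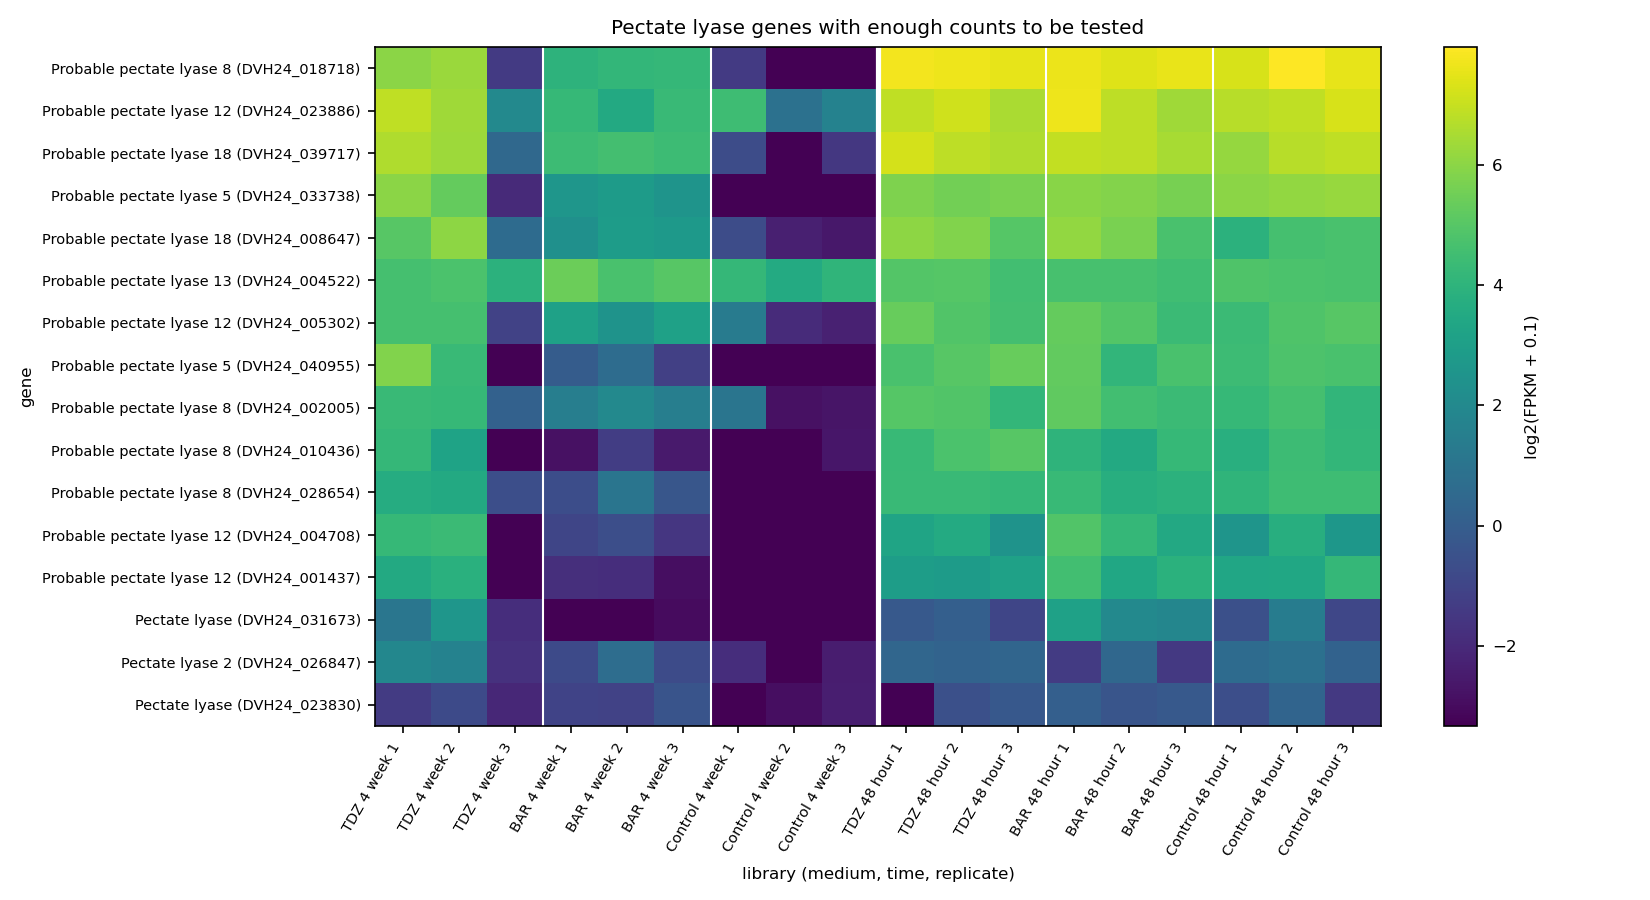
Heatmap of the 16 tested pectate lyases (rows, most abundant at the top) in the 18 libraries (columns by medium, time and replicate), coloured by log2(FPKM + 0.1), with lighter colours for higher levels. Most rows are bright at 48 hour on every medium, dark in 4 week controls and in TDZ, 4 week, replicate 3, and intermediate on BAR at 4 week, while pectate lyase 13 (DVH24_004522) stays green in every library.

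A pair of abundant pectate lyases reached at most 0.517 FPKM in 4 week controls. Pectate lyase 8 (DVH24_018718) had 64.6, 76.5 and 0.277 FPKM on TDZ, 15.7, 17.4 and 18.2 FPKM on BAR and 0.278, 0 and 0 FPKM on control medium at 4 week, against 156 to 248 FPKM in the 9 libraries of 48 hour. Control replicate 1 thus held every count of that group, and TDZ replicate 3 matched it. TDZ exceeded control by 8.72 ± 1.39 (adjusted p = 0.00199), or 9.28 (adjusted p = 7.26e-09) without TDZ replicate 3, and BAR exceeded control by 7.33 ± 1.36 (adjusted p = 0.00166). Pectate lyase 18 (DVH24_039717) had 98, 77.9 and 1.3 FPKM on TDZ, 21.2, 23.6 and 20.9 FPKM on BAR and 0.517, 0 and 0.257 FPKM on control medium at 4 week. Against control, TDZ was higher by 7.75 ± 1.16 (adjusted p = 0.00173) and BAR by 6.40 ± 1.11 (adjusted p = 0.00125), the TDZ difference being 8.32 (adjusted p = 1.31e-08) without TDZ replicate 3. These 4 calls held with each library left out. For neither gene was TDZ against BAR called, with 95% intervals of -0.55 to 3.32 and -0.37 to 3.08.

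Pectate lyase 5 (DVH24_033738) had 64.4, 38.5 and 0.154 FPKM on TDZ, 6.02, 7.1 and 5.61 FPKM on BAR and no count on control medium at 4 week, against 47 to 74.1 FPKM in the 9 libraries of 48 hour. It was at least 661-fold higher on TDZ than on control medium (adjusted p = 0.00224) and at least 120-fold higher on BAR (adjusted p = 0.00344), and in controls at least 1323-fold lower at 4 week than at 48 hour (adjusted p = 0.000596). Without TDZ replicate 3 the TDZ bound was 990-fold. These calls held with each library left out.

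Pectate lyase 18 DVH24_008647 had 32.5, 65.2 and 1.43 FPKM on TDZ, 4.94, 7.35 and 6.56 FPKM on BAR and 0.508, 0.0968 and 0.0631 FPKM on control medium at 4 week, with no overlap between the media apart from TDZ replicate 3. It was higher than in controls by 7.06 ± 1.08 on TDZ (adjusted p = 0.00185) and 4.74 ± 1.03 on BAR (adjusted p = 0.00396), and both held with each library left out. The TDZ difference was 7.61 (adjusted p = 2.26e-07) without TDZ replicate 3. Pectate lyase 12 DVH24_023886 had 117, 80.9 and 3.85 FPKM on TDZ, 19, 11.6 and 19.8 FPKM on BAR and 21.7, 1.72 and 3.09 FPKM on control medium, where control replicate 1 exceeded every BAR library. Its TDZ difference of 2.90 ± 0.93 (adjusted p = 0.0313) was lost without TDZ replicate 1 or 2 or control replicate 2 or 3 (adjusted p up to 0.128) and in the 4 week libraries alone, and was 3.45 (adjusted p = 0.00101) without TDZ replicate 3.

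Other pectate lyases were called higher on TDZ than on BAR with all libraries included. Pectate lyase 12 (DVH24_004708) had 18.7, 20.6 and 0 FPKM on TDZ, 0.418, 0.545 and 0.246 FPKM on BAR and no count on control medium at 4 week, against 5.39 to 29.8 FPKM in the 9 libraries of 48 hour. A gene of the same name, DVH24_001437, had 11.4, 14 and 0 FPKM on TDZ, 0.19, 0.181 and 0.0351 FPKM on BAR and no count on control medium. The other pectate lyase 5 (DVH24_040955) had 56.5, 19.6 and 0 FPKM on TDZ, 0.864, 1.48 and 0.337 FPKM on BAR and no count on control medium. In each, TDZ replicates 1 and 2 were within or above the range of 48 hour and TDZ replicate 3 had no count. TDZ exceeded BAR by 4.93 ± 1.23 (adjusted p = 0.027), 5.86 ± 1.27 (adjusted p = 0.0156) and 4.75 ± 1.23 (adjusted p = 0.0314) for these 3 genes in that order, and by 5.51, 6.44 and 5.33 without TDZ replicate 3 (adjusted p = 1.37e-05, 2.99e-06 and 1.91e-05).

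All 3 of these calls were lost without BAR replicate 1 or BAR replicate 3. The first was also lost without TDZ replicate 1, TDZ replicate 2 or BAR replicate 2, and the last without TDZ replicate 1 or BAR replicate 2. The highest adjusted p was 0.144, and no pectate lyase was called between TDZ and BAR in the 4 week libraries alone, a fit that called 0 members. Pectate lyase 8 (DVH24_028654) had 12.5, 11.4 and 0.549 FPKM on TDZ, 0.527, 1.97 and 0.713 FPKM on BAR and no count on control medium at 4 week, where TDZ replicate 3 fell in the BAR range. Pectate lyase 8 DVH24_010436 had 17.9, 9.14 and 0 FPKM on TDZ, 0.0406, 0.31 and 0.0751 FPKM on BAR and 0, 0 and 0.0585 FPKM on control medium, and exceeded BAR on TDZ by 5.86 ± 1.21 (adjusted p = 0.0111), a call lost without BAR replicate 1 or 3 (adjusted p up to 0.078) and 6.44 (adjusted p = 2.04e-06) without TDZ replicate 3. Gene DVH24_028654 was at least 176-fold higher on TDZ and at least 23.2-fold higher on BAR than on control medium (adjusted p = 0.00173 and 0.00434), and at least 258-fold higher on TDZ without TDZ replicate 3.

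The pectate lyase with the highest fitted difference between TDZ and BAR at 4 week was DVH24_031673. It had 2.08, 5.99 and 0.175 FPKM on TDZ, 0, 0 and 0.0239 FPKM on BAR and no count on control medium at that time, against 0.412 to 8.74 FPKM in the 9 libraries of 48 hour. All TDZ libraries stood above those of the other media. It was at least 93.3-fold higher on TDZ than on control medium (adjusted p = 0.00307), or at least 137-fold without TDZ replicate 3. The call between TDZ and BAR (adjusted p = 0.00877) was lost without BAR replicate 1 (adjusted p = 0.061), and no fold is given because BAR held so few counts.

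**Figure D5:**
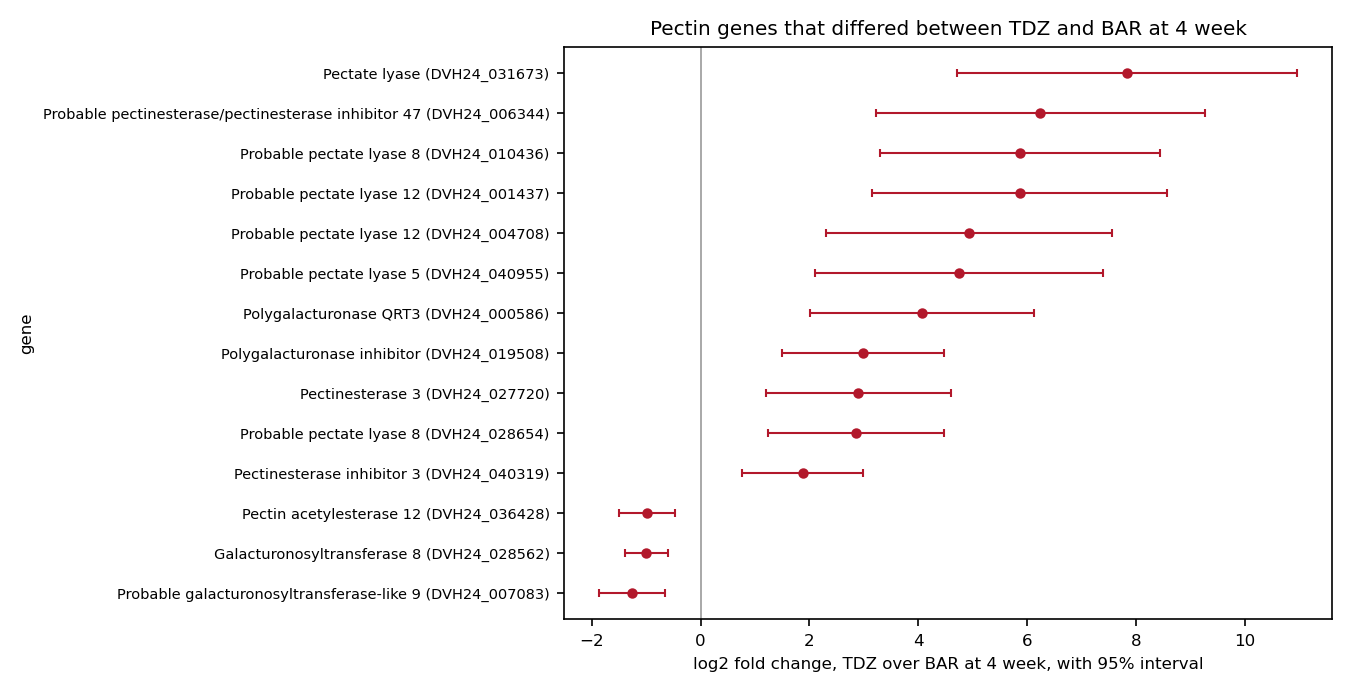
Log2 fold change with its 95% interval for the 14 members called between TDZ and BAR at 4 week, all 18 libraries included, ordered from the highest at the top. The 11 genes right of the line at 0 include 6 pectate lyases, and the 3 left of it are pectin acetylesterase 12, galacturonosyltransferase 8 and galacturonosyltransferase-like 9. Genes with a few counts on BAR have wide intervals.

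With time on cytokinin medium fewer members were called than in controls. At 4 week against 48 hour, 11 members were higher and 4 lower on TDZ (11% and 9.05% of all genes, 20.1% in either direction), and 12 were higher and 24 lower on BAR (10.1% and 11.2% of all genes, 21.2% in either direction). The TDZ count of 15 was 14 without TDZ, 4 week, replicate 3, became 9 without TDZ replicate 1 or 2 of 48 hour, and was 23 without control replicate 1 of 4 week. The BAR count of 36 became 17 and 22 without BAR replicate 1 or 2 of 48 hour, and 17, 19 and 19 without BAR replicates 1, 2 and 3 of 4 week. Pectin acetylesterase 8 (DVH24_000047) rose on both, to 62.3, 77.6 and 51.6 FPKM on TDZ at 4 week, against 11.6, 10.8 and 22.4 FPKM at 48 hour (2.07 ± 0.44, adjusted p = 0.0051, and 2.19 with adjusted p = 0.00493 without TDZ replicate 3). On BAR it had 89.2, 121 and 95.7 FPKM at 4 week, against 19.7, 23.4 and 25.2 FPKM at 48 hour (2.24 ± 0.44, adjusted p = 0.00277). A polygalacturonase (DVH24_006994) rose on all 3 media, and on TDZ it had 10.9, 6.03 and 10.9 FPKM at 4 week, against 1.23, 1.6 and 2.32 FPKM at 48 hour (2.41 ± 0.31, adjusted p = 0.000206, and 2.25 with adjusted p = 0.000319 without TDZ replicate 3).

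Other abundant members, and members of low level with high fitted changes, were less even. Pectin acetylesterase 8 DVH24_033462, the most abundant of its family, had 290, 237 and 146 FPKM on TDZ, 153, 298 and 170 FPKM on BAR and 238, 86.7 and 86.6 FPKM on control medium at 4 week. In controls the change from 48 hour was -1.21 ± 0.44 (adjusted p = 0.0399), a call lost without BAR replicate 2 or any control library of 48 hour or control replicate 2 or 3 of 4 week (adjusted p up to 0.152). Polygalacturonase DVH24_009852 had 65.9, 49.3 and 25.2 FPKM on TDZ, 23.1, 46.5 and 17.5 FPKM on BAR and 25.7, 8.76 and 9.29 FPKM on control medium at 4 week. It fell in controls with time by 2.35 on the log2 scale (adjusted p = 0.00157), which held with each library left out.

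Polygalacturonase At1g48100 DVH24_041237 had 0.665, 1.12 and 0.114 FPKM on TDZ, 0.582, 0.603 and 1.08 FPKM on BAR and 0, 0.0839 and 0 FPKM on control medium at 4 week. All cytokinin libraries were above the controls, TDZ by 4.32 ± 0.97 (adjusted p = 0.00586) and BAR by 4.63 ± 0.97 (adjusted p = 0.00332), both held with each library left out, and TDZ by 4.79 (adjusted p = 0.000293) without TDZ replicate 3. Polygalacturonase DVH24_005021 rose in controls with time, to 9.69, 1.49 and 2.75 FPKM at 4 week, against 0.13, 0 and 0 FPKM at 48 hour (6.58 ± 1.53, adjusted p = 0.00431). It was also called higher with time on BAR (4.56, adjusted p = 0.0193). On TDZ it had 0.123, 1.25 and 7.75 FPKM at 4 week, with TDZ replicate 3 highest, and its rise there (adjusted p = 0.0265) was lost without that library (adjusted p = 0.17). The rise on TDZ of pectinesterase/pectinesterase inhibitor 6 DVH24_007574, at 0.382, 0 and 9.71 FPKM at 4 week, likewise rested on replicate 3, with adjusted p = 0.0365 and 0.28 without it.

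At 48 hour no member was called between media, and neither was any of the 26053 genes (0% in each comparison). Levels still differed for type-A response regulators, which cytokinin is known to induce. They summed to 520 to 587 FPKM on TDZ, 333.5 to 440 FPKM on BAR and 114 to 197.5 FPKM on control medium. Without TDZ, 4 week, replicate 3, TDZ against control gave 0.0451% of all genes higher and 0.0488% lower. Among those higher were 3 of 10 type-A regulators, and 0 members were called. At an unadjusted p under 0.05, TDZ against control had 0 members higher and 12 lower, BAR against control 1 higher and 3 lower, and TDZ against BAR 0 higher and 13 lower, of 129 tested. Of all genes, 2.21%, 1.32% and 3.29% were higher and 3.31%, 1.34% and 4.27% lower by the same measure in these 3 comparisons. DESeq2 called 3, 0 and 2 members, all lower on TDZ, and the 9 libraries of 48 hour alone called 1, 0 and 0. The 4 of smallest p between TDZ and control include a pectinesterase/pectinesterase inhibitor 6 (DVH24_007578), with 0, 0 and 0.0461 FPKM on TDZ, 1.76, 1.19 and 0.888 FPKM on BAR and 1.39, 2.4 and 5.4 FPKM on control medium. They also include a pectinesterase/pectinesterase inhibitor 7 (DVH24_033564), with 0.49, 0 and 0.58 FPKM on TDZ, 2.58, 2.31 and 7.17 FPKM on BAR and 2.88, 2.12 and 28.3 FPKM on control medium. Neither gene's TDZ libraries overlapped the others, but their adjusted p against control was 0.484 and 0.586, and 0.00389 and 0.00601 with DESeq2.

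The effect of each cytokinin differed between the times for some members. By the test of the difference itself, the signed TDZ effect was higher at 4 week than at 48 hour for 24 members and lower for 0 (5.44% and 2.14% of all genes, 7.58% in either direction). The signed BAR effect was higher for 16 and lower for 3 (6.7% and 4.69%, 11.4% in either direction). Signs were kept, so higher and lower here do not mean a larger and a smaller change from control. Pectate lyases were 10 of the 24 and 5 of the 16. The TDZ count became 1 without TDZ replicate 1 of 48 hour, 0 without TDZ replicate 2 or control replicate 3 of 48 hour or without TDZ replicate 1, TDZ replicate 2, control replicate 2 or control replicate 3 of 4 week, and 9 and 13 without control replicates 1 and 2 of 48 hour. It was 53 without TDZ replicate 3 and 56 without control replicate 1 of 4 week, and 12 with replicate number as a block. The BAR count became 11, 12, 11, 12 and 12 without BAR replicate 1 of 48 hour, control replicate 1 of 48 hour, BAR replicate 1, control replicate 2 and control replicate 3 of 4 week, and 40 and 44 without TDZ replicate 3 and control replicate 1 of 4 week.

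Other genes of pectin metabolism were 176 genes for sugar-nucleotide supply, pectin methyltransfer, side-chain synthesis and hydrolysis, and pectin-binding receptors, of which 122 were tested. At 4 week 21 were higher and 8 lower on TDZ than on control medium, and 26 were higher and 11 lower on BAR, against 16.8% and 9.72% of all genes on TDZ and 17.2% and 12.7% on BAR, so as a group they stood near the background. By role the TDZ counts were 1 higher and 2 lower of 8 for sugar-nucleotide supply, 5 and 3 of 35 for the pectin methyltransferase family, 3 and 1 of 20 for side-chain synthesis, 8 and 1 of 24 for side-chain hydrolysis and 4 and 1 of 35 for pectin-binding receptors. The BAR counts were 2 and 1, 7 and 2, 6 and 1, 8 and 3, and 3 and 4 for the same lists in that order. The TDZ total of 29 was 55 without TDZ replicate 3, with 38 higher and 17 lower, beside 23% and 17.9% of all genes. It was 13 and 17 without TDZ replicates 1 and 2, 16 and 15 without control replicates 2 and 3 and 8 in the 4 week libraries alone. The BAR total of 37 was 20 and 19 without control replicates 2 and 3 and 24 in the 4 week libraries alone.

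Markers of several cell types were called in the same comparisons, where 16.8% of all genes were higher and 9.72% lower on TDZ and 17.2% and 12.7% on BAR. Markers of dividing cells (cyclins, histone H4 and replication factors) were higher on TDZ than on control medium at 4 week for 24 of 42 tested and lower for 0, and on BAR for 1 and 3. Their summed level was 938 to 1705 FPKM on TDZ, 618 to 1310 FPKM on BAR and 771 to 908 FPKM on control medium at 4 week and 2256 to 3484 FPKM at 48 hour, and 7, 8 and 12 of 52 had no count on TDZ, BAR and control medium at 4 week. Shoot meristem markers were higher on TDZ for 14 of 25 and lower for 1, and on BAR for 5 and 3, with sums of 432 to 724 FPKM on TDZ, 697 to 741 FPKM on BAR and 545 to 639 FPKM on control medium, and 7, 14 and 22 of 38 at 0. Epidermis markers were higher for 12 and lower for 3 of 27 on TDZ and for 10 and 3 on BAR, phloem markers for 11 and 1 of 18 on TDZ and 7 and 0 on BAR, and xylem markers for 9 and 1 of 20 on TDZ and 10 and 1 on BAR. Chlorophyll-binding genes of leaf mesophyll were higher for 1 and lower for 9 of 27 on TDZ and for 3 and 5 on BAR, and pollen and anther genes for 2 and 0 of 9 on TDZ and 3 and 0 on BAR. Type-A response regulators, which cytokinin is known to induce, were higher for 9 and lower for 0 of 10 on TDZ and for 2 and 0 on BAR, with sums of 552, 482 and 14.8 FPKM on TDZ, 34.5 to 38.9 FPKM on BAR and 11.3 to 23 FPKM on control medium. Cytokinin dehydrogenases were higher for 3 and lower for 1 of 9 on TDZ and for 0 and 3 on BAR. With TDZ replicate 3 left out they were 4 and 2 of 10 on TDZ and 0 and 3 on BAR. In that fit 23% of all genes were higher and 17.9% lower on TDZ, and 21.1% and 15.5% on BAR. Without TDZ replicate 3, dividing-cell markers were higher for 30 and lower for 2 of 42 on TDZ and 6 and 5 on BAR, and meristem markers 19 and 2 of 26 on TDZ and 6 and 4 on BAR. Epidermis markers were then 15 and 5 of 27 on TDZ and 15 and 3 on BAR, phloem 11 and 1 of 19 on TDZ and 9 and 0 on BAR, xylem 13 and 1 of 20 on TDZ and 11 and 1 on BAR, and mesophyll 1 and 7 of 27 on TDZ and 3 and 6 on BAR. Pollen and anther genes were 3 and 0 of 9 on TDZ and 4 and 0 on BAR, and type-A regulators 9 and 0 of 10 on TDZ and 4 and 1 on BAR. The part of these cell types in the pectin results was not tested, and in whole shoots fewer cells of a type and less RNA per cell cannot be told apart.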

How the data were processed

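The authors deposited raw counts (whole numbers) per gene, beside FPKM values, for 18 libraries. Per the submitters' processing notes, CASAVA, HISAT2 2.0.5 and featureCounts 1.5.0-p3 were used. The build and the strandedness of the counting were not stated in those notes, so positions are left out and reads of overlapping antisense genes cannot be told apart. The deposited FPKM values are counts per gene length and library total times 1 constant per library, and were used for levels. Members and lists were chosen with earlier results of these data known.

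In R 4.3.3, edgeR 4.0.16 (TMM scaling) fitted the counts of 18 libraries in 6 groups jointly, with its quasi-likelihood test. filterByExpr (minimum count 10, minimum total 15) left 26053 genes, and a gene was called at a Benjamini-Hochberg adjusted p under 0.05 over all of them, in each of 11 comparisons. Intervals are 95%. Folds against a group without counts are bounds, taken at 3 counts over that group. Genes named were drawn from a set, not all of it printed, of the 3 members of highest mean FPKM per family, among called members whose higher group averaged 5 CPM or more the 6 highest and 6 lowest fold changes per comparison, and the 4 of smallest p where none was called; DVH24_027721, named beside its neighbour, was chosen after its values were seen. Alternatives were DESeq2 1.42.0, RLE scaling, no filter, the libraries of 1 time, the replicate number as a block, summing each of the 4 libraries with a b at the end of the name with the library of the same name, and each library left out. The scripts were tested on simulated data. Sequences and protein tables were not used here.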

Additional observations from a re-analysis of the deposited data

Results flagged for a closer look

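A cytokinin's effect (against control) differed between 4 week and 48 hour, by the test of that difference, for the members below. The values are 4 week minus 48 hour on the log2 scale, and each adjusted p was under 0.05. For the TDZ effect they were 14.39 for pectinesterase/pectinesterase inhibitor 28 DVH24_036545, 12.89 for pectate lyase 5 DVH24_033738, 11.61 for pectate lyase 5 DVH24_040955, 11.41 and 11.26 for the pectate lyases 12 DVH24_001437 and DVH24_004708, and 10.59 for pectate lyase 8 DVH24_028654. These 6 had no count in 4 week controls, so the values depend on the prior count of the fit and are not bounds. For the BAR effect they were 10.39 for DVH24_033738 and 8.06 for DVH24_028654, with the same limit, then 7.43 for pectate lyase 8 DVH24_018718, 6.29 for pectate lyase 18 DVH24_039717, 5.94 for pectin acetylesterase 10 DVH24_015023 and 4.97 for pectinesterase inhibitor 3 DVH24_040321. The BAR effect was lower at 4 week for 3 members, at -4.19 for pectinesterase/pectinesterase inhibitor 28 DVH24_015148, -3.51 for the polygalacturonase inhibitor DVH24_019508 and -1.23 for pectinesterase 31 DVH24_037074. Of the named calls on the TDZ effect, 0 of 19 held with each library left out, and of those on the BAR effect 8 of 15 did.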

How the results depend on the processing

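Counts of members called moved by over 1.5 times as follows. With DESeq2 they were 3 for TDZ against control and 2 for TDZ against BAR at 48 hour, 26 for TDZ against BAR at 4 week, 27 for TDZ over time, and 45 and 33 for the TDZ and BAR effects between times. In the 9 libraries of the same time they were 1 for TDZ against control at 48 hour, and 10, 24 and 0 for TDZ against control, BAR against control and TDZ against BAR at 4 week, with 8 and 24 neighbouring pathway genes on TDZ and BAR. In the 4 week libraries other than TDZ replicate 3, chosen after seeing the data, TDZ against BAR gave 26 and the pathway genes on TDZ 44. With libraries named b summed with their namesakes the TDZ effect gave 40. Without a filter or with RLE scaling no count moved so far. With each library left out in turn, the counts ranged from 27 to 73 for TDZ against control, 20 to 66 for BAR against control and 0 to 33 for TDZ against BAR at 4 week, and were 0 to 0 in the 3 comparisons at 48 hour. Over time they ranged from 9 to 23 on TDZ, 17 to 53 on BAR and 51 to 78 on control medium, with 0 to 56 for the TDZ effect and 11 to 44 for the BAR effect, and 13 to 55 and 19 to 41 for the pathway genes on TDZ and BAR. Of the named calls, 89 of 184 held with each library left out, and no named value changed sign under any alternative run; the cause of the changes was not tested. Replicate numbers pair nothing in the labels, and same-numbered libraries deviated together at correlations of -0.33 to 0.34, over 0.1 for 4 of 18 pairs. With the replicate number as a block the count for the TDZ effect was 12 and those at 4 week were 48, 42 and 11 for TDZ against control, BAR against control and TDZ against BAR. Depth limits genes with few counts, whose folds are given as bounds.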
